A study of Mus musculus with 6 samples.

Results

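Myelin genes, 10 of 24513 gene rows, were taken by name from the read count tables of 6 hypothalamus libraries, namely Mbp, Mobp, Mal, Cldn11, Mag, Mog, Cnp, Ugt8a, Aspa and Klk6. All are known as genes of mature oligodendrocytes, the glial cells that wrap axons in myelin. The libraries came from 3 wild-type (WT) mice and 3 NS-DADm mice, all of the C57BL/6 strain and aged 3 to 4 months, and each library held the total RNA of 1 hypothalamus, prepared separately. NS-DADm mice, as known for the line and not from the labels, carry mutations, in every cell, in the domain by which nuclear receptor corepressors including NCOR1 activate the deacetylase HDAC3. The comparison asks how hypothalamic transcripts differ when that domain is mutated. All 10 genes passed the filter on low counts, in both groups.

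Myelin is stacked oligodendrocyte membrane, rich in galactolipids, cholesterol and a small set of abundant proteins. Some of those proteins hold the layers together, others sit on the face toward the axon, on the outer surface, or in the channels that stay filled with cytoplasm, and separate enzymes supply the lipids. Nuclear receptors for thyroid hormone, to which NCOR proteins bind, are known to control the maturation of oligodendrocytes and the transcription of Mbp. In whole tissue, fewer oligodendrocytes and less RNA per oligodendrocyte cannot be told apart.

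The libraries held 24.2 M to 27.6 M reads on genes (M, 1e6). Levels are given as CPM, reads per M reads on genes after scaling with TMM factors, and the threshold is an adjusted p under 0.05 in the test over all genes. Defining hypothalamic genes (Hcrt, Pmch, Oxt, Avp and Nkx2-1) were present in all 6. Of 12 hypothalamic markers, 10 were fitted above 0 and 2 below, with a median log2 of 0.18, and Trh, a neuropeptide gene, was called higher (log2 0.26; edgeR, BH adjusted p = 0.042). Their sum ran from 669 to 730 CPM among WT and from 686 to 813 CPM among NS-DADm libraries. All 14 markers of the neighbouring thalamus were fitted below 0, and 6 passed the threshold. Their sum ran from 886 to 1271 CPM among WT and from 598 to 671 CPM among NS-DADm libraries, with none at 0 throughout. NS-DADm 2 stood apart in the 10 markers of the anterior pituitary, of which none was at 0 throughout. There the 10 markers summed to 2022 CPM, against 201 to 203 CPM in NS-DADm 1 and 3. The sum was 40.5 to 112 CPM in the WT libraries. Most of each sum was Gh, at 1810 CPM in NS-DADm 2 and at 167 and 172 CPM in NS-DADm 1 and 3. Prl was also highest in NS-DADm 2, at 172 CPM.

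Ugt8a, the enzyme that makes the myelin lipid galactosylceramide, fell in NS-DADm mice, and was the only one of the 10 past the threshold. Another 5 (Klk6, Aspa, Cldn11, Mag and Mog) had lower mean levels by log2 values of -0.81 to -0.19, Mbp and Cnp by -0.09 and -0.07, and Mobp and Mal had higher mean levels by 0.22 and 0.23. In the test over all 15894 genes that passed the filter (edgeR quasi-likelihood, Benjamini-Hochberg (BH) adjusted p under 0.05), 1 member was called lower and 0 higher, where 0.654% of all tested genes were called, 0.573% lower and 0.0818% higher. Without adjustment, 6 members had a p under 0.05 in the lower direction and 2 in the higher, against 6.46% and 4.40% of all tested genes. DESeq2 called 3 members lower and 0 higher, where it called 1.67% of the 16908 genes to which it gave an adjusted p, 1.37% lower and 0.296% higher. Limma voom called 1 lower and 0 higher, where it called 0.541% of all tested genes, 0.472% lower and 0.0692% higher. The median log2 fold change was -0.20 over the members and 0.0040 over all tested genes, and 8 of the 10 were fitted below 0, as were 48.4% of all tested genes.

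**Figure D1:**
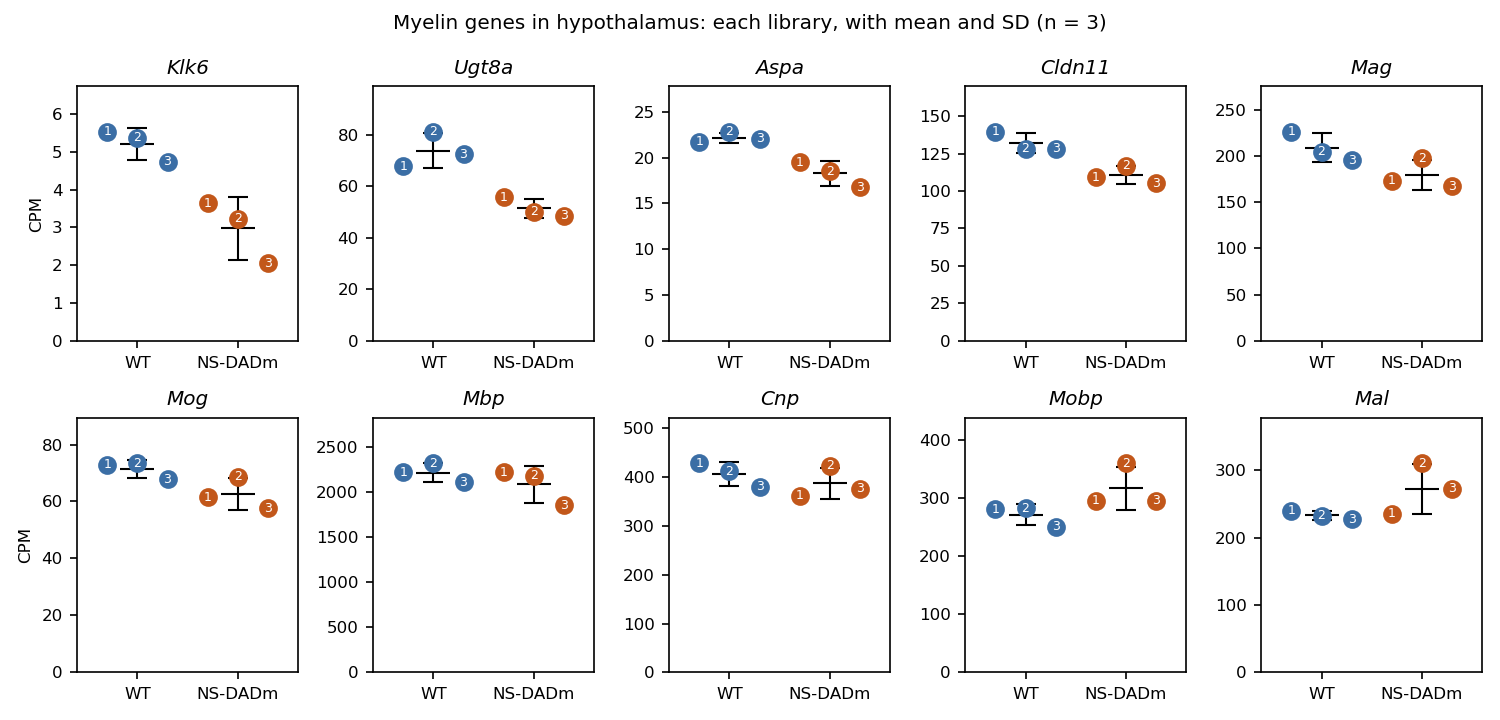
Normalised read counts (CPM, linear axis from 0) of the 10 myelin genes in each library, ordered by fitted change. Numbered points are libraries 1 to 3 of each group, the long tick is the group mean and the bars its SD. The NS-DADm points of Klk6, Ugt8a, Aspa and Cldn11 all lie under the WT points, and those of Mobp all lie above them.

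Levels were compared between genes as CPM per kb of annotated exon. In WT hypothalamus, Mbp, whose basic protein seals the cytoplasmic faces of the membrane layers, stood highest at 262 ± 12.2 CPM per kb (mean ± SD, n = 3), rank 65 of 15268 tested genes with a length. Cnp followed at 112 ± 6.72, Mal at 84.0 ± 2.32, Cldn11 at 70.5 ± 3.46, Mag at 51.2 ± 3.83, Mog at 41.9 ± 1.78 and Mobp at 39.6 ± 2.59 CPM per kb. Far below them came Ugt8a at 16.3 ± 1.5, Aspa at 3.73 ± 0.0935 and Klk6 at 3.44 ± 0.276 CPM per kb. The WT libraries overlapped for 2 neighbouring pairs in this order, Mog with Mobp and Aspa with Klk6, and for no other neighbours. In NS-DADm hypothalamus Mobp measured 46.2 ± 5.41 CPM per kb and stood above Mog (36.7 ± 3.26) and Mag (44.0 ± 3.95) within each of the 3 libraries. The ranges of Mobp and Mag over the NS-DADm libraries overlapped, and within each WT library Mag stood above Mobp. Together the 10 genes took 0.344 to 0.372% of all reads on genes in WT libraries, and 0.318 to 0.374% of them with the NS-DADm genotype, of which Mbp alone made up more than all the others. Without Mbp the shares were 0.134 to 0.148% and 0.133 to 0.155%.

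The genes lie at separate places in the mm10 (GRCm38) genome, positions being those of GENCODE. Ugt8a spans chromosome 3 from 125865271 to 125938619 on the minus strand, and Cldn11 lies on the same chromosome at 31149920 to 31164324 on the plus strand. Mag (30899176 to 30914873, minus) and Klk6 (43824499 to 43832030, plus) are on chromosome 7. Aspa (73304992 to 73329596, minus) and Cnp (100574904 to 100591729, plus) are on chromosome 11. Mal is at 127633226 to 127656695 on chromosome 2 (minus), Mobp at 120149707 to 120181484 on chromosome 9 (plus) and Mog at 37010743 to 37023398 on chromosome 17 (minus). Exons of Cnp share 154 bases with exons of Dnajc7 on the other strand, and exons of Mobp share 79 bases with Gm38642 on the same strand, so a few reads there could belong to either gene. No member had another gene's transcript matching it at 90% identity or more over 100 bases or more.

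The stretches just before the transcription starts are shown for 4 genes chosen to cover both directions of fitted difference, Ugt8a and Cldn11 with lower levels in every NS-DADm library and Mobp and Mal with higher means, of which only Ugt8a passed the threshold. Each is the 250 bases before the RefSeq start (GRCm38.p6), 5′ to 3′ on the gene's strand, with capitals for ACAAAG, the core of SOX factor motifs, on either strand.
Ugt8a, chr3:125938653-125938902, minus strand: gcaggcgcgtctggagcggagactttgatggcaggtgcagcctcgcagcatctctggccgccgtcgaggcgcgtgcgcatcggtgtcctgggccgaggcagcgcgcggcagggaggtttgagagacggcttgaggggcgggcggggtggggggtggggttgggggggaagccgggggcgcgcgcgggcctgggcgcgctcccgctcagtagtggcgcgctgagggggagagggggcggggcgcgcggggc
Cldn11, chr3:31149670-31149919, plus strand: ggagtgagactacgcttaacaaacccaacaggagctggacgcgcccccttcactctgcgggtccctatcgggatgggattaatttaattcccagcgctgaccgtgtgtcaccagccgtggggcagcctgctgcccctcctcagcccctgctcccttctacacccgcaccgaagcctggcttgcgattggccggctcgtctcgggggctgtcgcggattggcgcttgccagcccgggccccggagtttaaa
Mobp, chr9:120149492-120149741, plus strand: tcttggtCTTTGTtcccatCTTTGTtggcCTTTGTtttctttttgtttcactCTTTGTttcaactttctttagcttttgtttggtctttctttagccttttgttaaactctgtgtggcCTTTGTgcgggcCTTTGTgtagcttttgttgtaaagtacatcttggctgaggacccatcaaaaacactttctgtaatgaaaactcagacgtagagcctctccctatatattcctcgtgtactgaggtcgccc
Mal, chr2:127656696-127656945, minus strand: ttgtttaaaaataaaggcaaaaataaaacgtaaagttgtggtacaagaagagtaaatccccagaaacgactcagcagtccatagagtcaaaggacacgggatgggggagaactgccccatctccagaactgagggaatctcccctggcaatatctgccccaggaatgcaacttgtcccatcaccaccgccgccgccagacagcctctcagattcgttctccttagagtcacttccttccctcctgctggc

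The motifs, 3 in all, were searched on both strands of these windows for the 9 members with an entry used here (12 starts), and they did not overlap one another in any window printed. The nuclear receptor half-site AGGTCA was in 0 of the 12 windows and in 14.0% of all 32851 windows of that length in the table. ACAAAG was before 5 of the 12 starts, of Mag, Klk6, Mobp and Cnp, and in 16.5% of all windows. The motif CTGGNAC, bound by the oligodendrocyte factor MYRF, was before 5 starts, of Mag, Klk6, Cnp and Mog, and in 16.1% of all windows. For both motifs, the Mag windows at 30914864 to 30915113 and 30914923 to 30915172 overlap and hold the same matches, counted at each start. Mobp held 6 matches to ACAAAG, each read as CTTTGT in the sequence above, and no other of the 32851 windows held as many, a count singled out after it was seen. Ugt8a, Cldn11 and Mal held no match to any of the 3, which says only that these letters are not in those windows. In GENCODE the Ugt8a gene begins downstream of the RefSeq start used here. The window of Mobp ends at 120149741, past the GENCODE start of Mobp at 120149707. Of the windows not printed, those of Klk6, Aspa and Cnp and some of Mag also reached into the annotated gene. The window of Ugt8a was 76.8% G and C and that of Mobp 40.8%.

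Values by library are given below in the order 1, 2, 3 within each group. None of the 3 genes for structural proteins of compact myelin, Mbp, Mobp and Mal, passed the threshold. Mbp stood at 2220, 2315 and 2108 CPM across the WT libraries and at 2217, 2180 and 1850 CPM across the NS-DADm libraries. Only NS-DADm 3 lay below the WT libraries, and the groups overlapped (log2 -0.09 ± 0.07 SE; edgeR, BH adjusted p = 0.70). Without NS-DADm 3 the log2 of Mbp was -0.01, without WT 2 it was -0.06 and without NS-DADm 1 it was -0.13. Mobp, which encodes a basic protein found with MBP at the cytoplasmic faces of the sheath, stood at 281, 282 and 251 CPM across the WT libraries and at 295, 359 and 295 CPM across the NS-DADm libraries. Every NS-DADm library lay above every WT library, as was so for 7.86% of all tested genes, and NS-DADm 2 was the highest. The fitted difference in Mobp, log2 0.22 ± 0.08 SE, did not pass the threshold (edgeR, BH adjusted p = 0.33).

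Mal, which encodes a proteolipid of compact myelin, stood at 240, 232 and 227 CPM across the WT libraries and at 236, 310 and 273 CPM across the NS-DADm libraries. NS-DADm 2 and 3 were above all WT libraries while NS-DADm 1 lay among them (log2 0.23 ± 0.08 SE; edgeR, BH adjusted p = 0.35). Both genes were highest in NS-DADm 2, and without that library their log2 fold changes were 0.12 for Mobp and 0.12 for Mal. That was also the library with the most pituitary RNA, whose part in the levels of Mobp and Mal was not tested. Without NS-DADm 1, Mal was past the threshold at a log2 of 0.32 (edgeR, BH adjusted p = 0.048).

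Cldn11 encodes the claudin of the tight junctions that run between myelin layers. Its level was at 139, 128 and 128 CPM across the WT libraries and at 109, 117 and 105 CPM across the NS-DADm libraries. All NS-DADm libraries lay below all WT libraries, as was so for 8.93% of all tested genes. The fitted difference was -0.26 ± 0.06 SE on the log2 scale and lay just outside the threshold (edgeR, BH adjusted p = 0.060). Among the settings that do not pair libraries by number, it was inside without WT 1 (log2 -0.21, adjusted p = 0.031 in edgeR), with DESeq2 (adjusted p = 0.0075) and with no count filter (edgeR, adjusted p = 0.018).

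Neither of the genes for adhesion and surface proteins, Mag and Mog, passed the threshold. Mag, the glycoprotein on the innermost layer that faces the axon, stood at 226, 205 and 196 CPM across the WT libraries and at 173, 198 and 167 CPM across the NS-DADm libraries. Its groups overlapped through NS-DADm 2, which lay above WT 3 (log2 -0.22 ± 0.07 SE; edgeR, BH adjusted p = 0.25). Mog, a glycoprotein of the outermost surface, stood at 72.9, 73.3 and 67.9 CPM across the WT libraries and at 61.5, 68.6 and 57.7 CPM across the NS-DADm libraries. Here too NS-DADm 2 alone reached into the WT range (log2 -0.19 ± 0.07 SE; edgeR, BH adjusted p = 0.29).

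Cnp, an enzyme that keeps the cytoplasmic channels of myelin open, stood at 428, 412 and 380 CPM across the WT libraries and at 362, 423 and 377 CPM across the NS-DADm libraries. NS-DADm 2 lay between WT 2 and WT 1, NS-DADm 3 just under WT 3 and NS-DADm 1 further below it (log2 -0.07 ± 0.06 SE; edgeR, BH adjusted p = 0.77). The log2 of Cnp was -0.02 without NS-DADm 1 and -0.03 without WT 1, and -0.14 without NS-DADm 2 and -0.12 without WT 3.

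Of the 3 genes for enzymes outside the sheath's structure, only Ugt8a passed the threshold. All 3 lay lower in each NS-DADm library than in any WT library, as did 8.93% of all tested genes. Ugt8a stood at 67.8, 81.2 and 72.5 CPM across the WT libraries (1854, 2221 and 1913 reads) and at 55.8, 50.2 and 48.7 CPM across the NS-DADm libraries (1363, 1387 and 1280 reads). The groups did not overlap, and WT 1 was the WT library nearest to the NS-DADm values. Ugt8a fell 1.43-fold (log2 -0.52 ± 0.07 SE; edgeR, BH adjusted p = 0.0090). The call was lost when WT 3, NS-DADm 2 or NS-DADm 3 was left out (adjusted p = 0.054, 0.12 and 0.11 in edgeR). The log2 values were then -0.53, -0.50 and -0.48. The number of all genes called was then 10, 5 and 8, against 104 with all 6 libraries. Without WT 1, WT 2 or NS-DADm 1 the call of Ugt8a held (adjusted p = 0.00014, 0.0065 and 0.010 in edgeR), at log2 values of -0.57, -0.44 and -0.58. With the thalamus markers, lower in the same libraries, as a covariate, Ugt8a had a log2 of -0.82 and was not past the threshold (edgeR, BH adjusted p = 0.076).

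Aspa, which frees acetate from N-acetylaspartate for use in lipid synthesis, stood at 21.7, 22.8 and 22.0 CPM across the WT libraries and at 19.5, 18.5 and 16.8 CPM across the NS-DADm libraries. The WT libraries lay close together and the NS-DADm libraries below them, but the difference of -0.28 ± 0.07 SE (log2) did not pass the threshold (edgeR, BH adjusted p = 0.13). Klk6, a secreted serine protease of oligodendrocytes, had the largest fitted difference of the 10 and the fewest reads: 151, 147 and 125 across the WT libraries against 89, 89 and 54 across the NS-DADm libraries. Its levels were 5.52, 5.37 and 4.73 CPM and 3.64, 3.22 and 2.05 CPM, and NS-DADm 3 was the lowest. The log2 fold change of Klk6 was -0.81 ± 0.18 SE (edgeR, BH adjusted p = 0.066). Among the settings that do not pair libraries by number, DESeq2 (adjusted p = 0.015), edgeR with no count filter (adjusted p = 0.017) and edgeR without NS-DADm 1 (log2 -0.97, adjusted p = 0.047) placed it past the threshold.

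**Figure D2:**
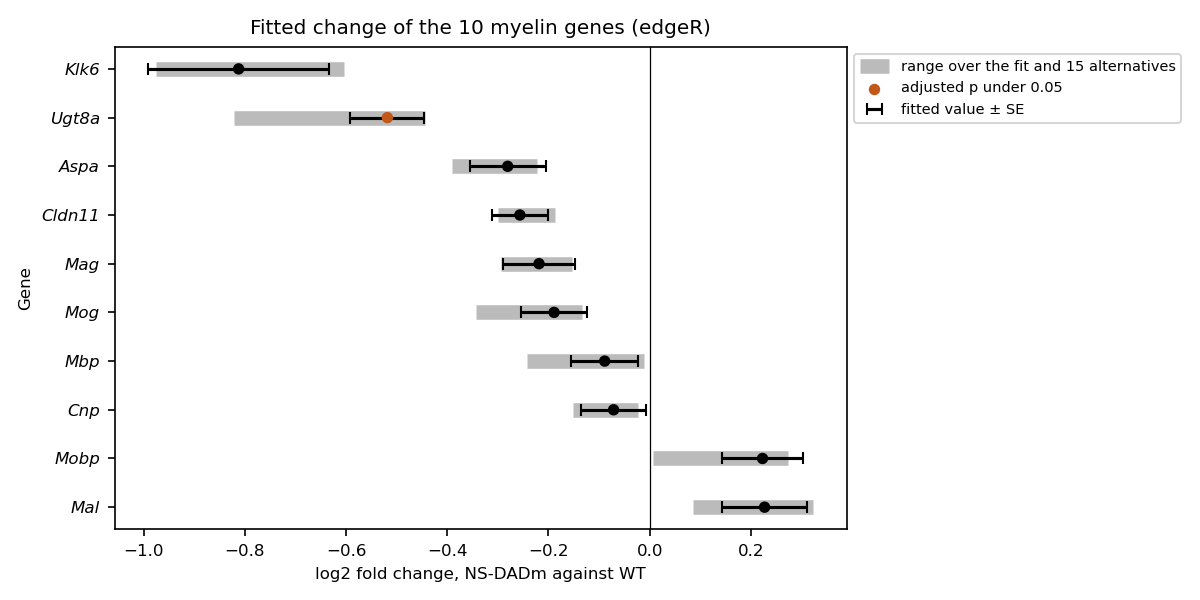
Fitted log2 fold changes of the 10 genes (NS-DADm against WT, black bars ± SE) with the range over the fit and 15 alternative settings in grey. Ugt8a at -0.52 is the gene past the adjusted threshold; no grey bar crosses 0, and that of Mobp comes closest at 0.0064.

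Libraries of a group differed in how many members lay outside the WT range. NS-DADm 3 was the lowest of the 6 libraries for 7 of the 10 genes, and 8 members lay there below every WT library while Mobp and Mal lay above every one. In NS-DADm 1, 7 members lay below and 1, Mobp, above every WT library. In NS-DADm 2, 4 lay below (Ugt8a, Aspa, Klk6 and Cldn11) and 2 above (Mobp and Mal). Of all tested genes, 24.7% lay below and 25.8% above every WT library in NS-DADm 3, 23.7% and 25.7% in NS-DADm 1, and 24.7% and 24.8% in NS-DADm 2. The median difference from the WT mean over the 10 genes was -0.31, -0.20 and -0.07 in log2 CPM in NS-DADm 3, 1 and 2. Among WT libraries, WT 3 was under the WT mean for all 10 genes, with a median of -0.07, the same as that of NS-DADm 2.

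**Figure D3:**
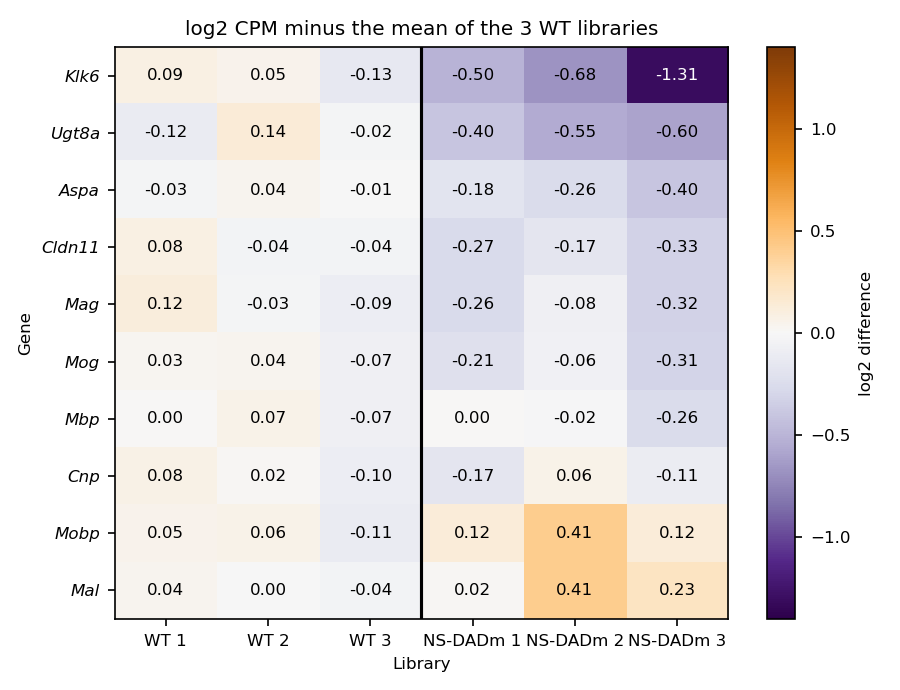
log2 CPM of each gene in each library minus the mean of the 3 WT libraries (colour and printed value). Klk6 in NS-DADm 3 is the lowest cell at -1.31, Mobp and Mal in NS-DADm 2 are the highest at 0.41, and the WT columns stay within 0.14 of 0.

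Ugt8a was also set against the other myelin genes. Its log2 CPM minus the mean log2 CPM of the other 9 members, a measure that cancels the library scaling, stood at -1.02, -0.73 and -0.80 across the WT libraries and at -1.09, -1.36 and -1.15 across the NS-DADm libraries. All NS-DADm values lay below all WT values, with a difference of -0.35 between the group means (WT SD 0.15, NS-DADm SD 0.14, n = 3 each). This is a description with no test, since Ugt8a was set apart for its call in the same libraries. Against the other mature oligodendrocyte genes described below the difference was -0.33. Measured in the same way against the other 9, Klk6 differed by -0.70, Mobp and Mal by 0.47 each, Mbp and Cnp by 0.12 and 0.14, and Mag, Mog, Cldn11 and Aspa by -0.09 to 0.01.

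A pair of further sets of genes of the mature cell were read from the same fit, the 10 members left out. Of 15 genes of compact myelin and of the contact zones beside the node of Ranvier, 0 passed the threshold in edgeR, DESeq2 or limma voom, 11 were fitted below 0 and 4 above, and 6 lower and 1 higher had an unadjusted p under 0.05. Of all tested genes, 6.46% were lower and 4.40% higher at an unadjusted p under 0.05. The median log2 fold change of the 15 was -0.12. Gjb1, a gap junction channel between myelin layers, Ermn, a cytoskeletal protein of the sheath, and Pllp, a proteolipid related to Mal, had log2 fold changes of -0.34, -0.19 and -0.19, none past the threshold. Without WT 1, 3 of the 15 were called, where 312 of all 15999 genes tested in that fit were. With any other single library left out, 0 of the 15 were called.

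Of 28 other genes of mature oligodendrocytes, 1 fell past the threshold in edgeR and limma voom, 4 did in DESeq2 and 0 rose, with 25 fitted below 0, 3 above and a median of -0.18. At an unadjusted p under 0.05, 16 were lower and 0 higher, against 6.46% and 4.40% of all tested genes. Groups did not overlap for 14, all lower, where 8.93% of all tested genes were lower without overlap. The gene that fell was Anln, which encodes the cytoskeletal scaffold anillin. It stood at 36.6, 42.0 and 35.8 CPM across the WT libraries and at 31.3, 28.2 and 26.1 CPM across the NS-DADm libraries (log2 -0.42 ± 0.08 SE; edgeR, BH adjusted p = 0.039). All NS-DADm values of Anln lay under all WT values. The call of Anln was lost with library totals alone (adjusted p = 0.055 in edgeR) and with any of WT 2, WT 3, NS-DADm 2 and NS-DADm 3 left out (adjusted p = 0.065, 0.081, 0.22 and 0.25 in edgeR). With the thalamus covariate it was lost too, at a log2 of -0.68 (adjusted p = 0.27 in edgeR). The actin-severing gene Gsn, the carbonic anhydrase gene Car2 and the protease gene Adamts4 had log2 fold changes of -0.44, -0.29 and -0.30, short of the threshold.

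**Figure D4:**
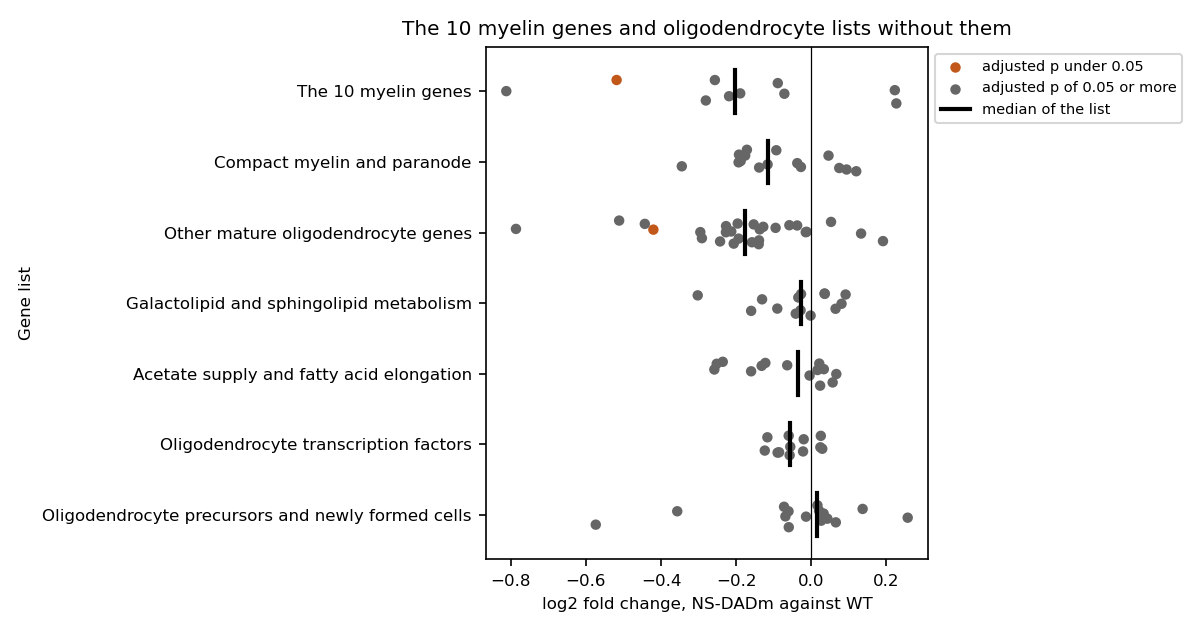
Fitted log2 fold changes (NS-DADm against WT) of the 10 myelin genes and of 6 lists of oligodendrocyte genes with those 10 left out, 1 point per gene and a bar at each list's median. Ugt8a and Anln are the coloured points, past the adjusted threshold; the medians lie between -0.20 and 0.02.

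Genes that work beside Ugt8a and Aspa were read for the same comparison. Of 14 other genes of galactolipid and sphingolipid metabolism, 0 passed the threshold in edgeR or limma voom and 1 in DESeq2, with 1 lower and 0 higher at an unadjusted p under 0.05 and a median log2 of -0.03. The lowest p in this list was that of Fa2h, which hydroxylates the fatty acids that Ugt8a builds into galactosylceramide. Fa2h stood at 43.6, 45.3 and 42.1 CPM across the WT libraries and at 39.6, 34.9 and 31.8 CPM across the NS-DADm libraries, without overlap (log2 -0.30 ± 0.08 SE; edgeR, BH adjusted p = 0.11). Gal3st1, which adds sulfate to the same lipid, had a log2 of -0.16, and Galc, which degrades it, of -0.0014, with overlapping groups for both. Of 14 genes of acetate supply and fatty acid elongation, 0 passed in edgeR, DESeq2 or limma voom, and the median was -0.03. At an unadjusted p under 0.05, 3 were lower and 0 higher, against 6.46% and 4.40% of all tested genes. The 3 were Acss2, which turns acetate into acetyl-CoA, Aacs, which activates acetoacetate, and Scd1, a fatty acid desaturase, with log2 values of -0.24, -0.26 and -0.25 (edgeR, BH adjusted p = 0.24, 0.26 and 0.43). Nat8l, the neuronal enzyme that makes the substrate of Aspa, had a log2 of 0.02.

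Regulators and earlier stages of the lineage were read last. Of 12 oligodendrocyte transcription factors, 0 passed in edgeR, DESeq2 or limma voom and 0 had an unadjusted p under 0.05, with a median log2 of -0.06. Sox10 and Sox8 had log2 values of -0.12 and -0.12, and Myrf, which drives myelin genes, of -0.06, none past the threshold. Of 15 genes of precursors and newly formed oligodendrocytes, 0 passed in edgeR or limma voom and 1 in DESeq2, with 7 fitted below 0, 8 above and a median of 0.02. Pdgfra, the growth factor receptor of precursors, had a log2 of -0.06. Bmp4, a secreted growth factor of the lineage, was measured at only 1.94 to 2.23 CPM in WT and 1.05 to 1.67 CPM in NS-DADm libraries, without overlap (log2 -0.57 ± 0.20 SE; edgeR, BH adjusted p = 0.29). Enpp6, a phosphodiesterase gene of newly formed oligodendrocytes, had a log2 of -0.36 and overlapping groups (edgeR, BH adjusted p = 0.46). The one called by DESeq2 was Bcas1, a gene of newly myelinating cells, at 156, 157 and 144 CPM across the WT libraries and 186, 194 and 166 CPM across the NS-DADm libraries. All NS-DADm values of Bcas1 lay above all WT values (log2 0.26 ± 0.06 SE; edgeR, BH adjusted p = 0.085; DESeq2 adjusted p = 0.013).

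By the similarity of log2 CPM over the 6 libraries, the genes closest to the mean standardised course of the 10 members, among 14524 others with a mean of at least 1 CPM, were Cpsf3, Galm, Wscd1, Tcf25 and Pllp, with Pearson r of 0.98 to 0.99. Closest to Ugt8a were Tmem127, Inhbb, Serpinb1a, Rnf10 and Desi1, with r of 0.98 to 0.99. These r are descriptions over 6 libraries that also differ by group, chosen as the highest of many. Serpinb1a, a protease inhibitor, fell from 11.4 to 7.14 CPM (log2 -0.68; edgeR, BH adjusted p = 0.011), and the other 9 did not pass the threshold.

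The mean log2 CPM of the 14 thalamus markers ran from 5.18 to 5.91 in WT and from 4.26 to 4.54 in NS-DADm libraries. The groups did not overlap, so a fit with this mean as a covariate cannot tell thalamus content and genotype apart. With that covariate, 8 genes in all were called and no member. Klk6, Aspa, Mog and Mbp then had log2 values of -0.88, -0.39, -0.34 and -0.24, Mobp and Mal of 0.0064 and 0.09, none past the threshold, and the members' median was -0.22. Schwann cell markers, of peripheral myelin, summed to 91.8 to 94.4 CPM in WT and 92.2 to 98.4 CPM in NS-DADm. Summed markers of neurons ran from 4715 to 4880 CPM in WT and 4455 to 4508 CPM in NS-DADm, of microglia from 280 to 295 and 262 to 274 CPM, and of astrocytes from 4119 to 4400 and 4115 to 4314 CPM. Endothelial markers summed to 101 to 128 CPM in WT and 96.6 to 103 CPM in NS-DADm, and those of choroid plexus to 33.5 to 37.6 and 32.0 to 42.6 CPM. The part of these cell types in the members' values was not tested.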

How the data were processed

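RNA was sequenced from the hypothalamus of 3 WT and 3 NS-DADm mice. The deposited tables, 1 for each library, give whole read counts by gene symbol, which the authors made with TopHat2 2.0.9 and HTSeq on mm10, per the submitters' processing notes; no HTSeq version, annotation or strand setting is given in the sources used here. The 5 rows of unassigned reads were left out of library sizes and tests (outside genes 13.3 to 14.8% of entries, ambiguous 1.00 to 1.06%, not unique 14.3 to 16.5%).

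After filterByExpr and TMM scaling (factors 0.992 to 1.01), counts were tested with edgeR 4.0.16 (quasi-likelihood, robust, no covariates) in R 4.3.3, with BH adjustment over 15894 genes and a threshold of 0.05. Each SE is the absolute log2 fold change divided by the square root of F. Log2 CPM used a prior count of 2. DESeq2 1.42.0, limma 3.58.1, other scalings and filters, a thalamus covariate, a replicate block and leaving out each library were alternatives. No 2 libraries of a group agreed within counting noise (chi-square per degree of freedom 3.30 to 9.98). Exon lengths came from GENCODE (23336 of 24513 symbols matched 1 gene, 95.2%), sequences from RefSeq GRCm38.p6, and similar transcripts from BLAST 2.17.0; figures used matplotlib 3.10.9.

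The members, lists and tests were chosen with earlier results of these data known. Named genes are the members, up to 4 genes per list with the smallest p or all that were called, and the 5 most similar in course to the members and to Ugt8a; Galc, Nat8l, Myrf and Pdgfra were named for their roles after their values were seen. Some genes that the rule names are not reported here.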

Additional observations from a re-analysis of the deposited data

How the results depend on the processing

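All 10 members kept their direction in each of 15 alternative settings. Ugt8a stayed past the threshold in 11 of the 15. The count of all genes called, 104, became 282 with DESeq2, 203 with no count filter, 8 with the thalamus covariate and 409 with the replicate block, and 5 to 312 when 1 library was left out. The count of members called, 1, became 3 with DESeq2, 3 with no count filter, 0 with the thalamus covariate and 4 with the replicate block, and 0 to 3 when 1 library was left out. The members' median log2 lay between -0.28 and -0.15 when 1 library was left out, the lowest being without NS-DADm 2. The difference of Ugt8a from the other 9 members lay between -0.43 and -0.27 when 1 library was left out of the group means. Those values kept the scaling of all 6 libraries and were not refitted. Replicate numbers were not taken to pair WT and NS-DADm libraries, as the sample titles name no pairing. The deviations from the group means correlated at 0.20, 0.13 and -0.02 for numbers 1, 2 and 3. Libraries 1 and 2 correlated best with their own number and libraries 3 did not. With so few libraries, these values cannot settle whether the numbers pair the samples. With the block, Cldn11 and Klk6 (lower) and Mobp (higher) were past the threshold beside Ugt8a, at adjusted p of 0.010, 0.0063 and 0.033 in edgeR. The cause of these changes was not tested. Klk6, with 54 to 151 reads, and 3 animals per group set the limits of precision. The edgeR p-values weigh each group difference against a variation between animals that is estimated with information from all genes.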

Other observations

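Receptors and corepressor genes known to act with NCOR in oligodendrocytes had small differences. Of 8 such genes (among them Thra, Rxra and Hdac3), 0 passed the threshold in edgeR, DESeq2 or limma voom, 6 were fitted above 0 and 2 below, and the median log2 fold change was 0.09. An unadjusted p under 0.05 was found for 3, all higher in NS-DADm mice, as for 4.40% of all tested genes. Rxra, a partner of thyroid hormone and other nuclear receptors, stood at 66.9 ± 1.32 CPM in the WT group and at 72.6 ± 2.19 CPM in the NS-DADm group without overlap (n = 3 each; log2 0.12 ± 0.05 SE; edgeR, BH adjusted p = 0.41).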
